A study of Mus musculus with 15 samples.

Results

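The 41 genes described here mark 4 kinds of cell that share the skin with keratinocytes: 14 mark leukocytes, 12 endothelial cells, 7 melanocytes and 8 fibroblasts. They were chosen by name, from the symbols to which the Ensembl identifiers of the count tables map, and all 41 have an entry among the 37583 genes of the tables. The RNA came from tumours that C57BL/6 mice grew in the skin under DMBA, which mutates DNA, and TPA, which drives proliferation of the epidermis. Every group shares that treatment. Cells were separated by their surface CD34, which marks cells of the hair follicle bulge but is also found on endothelial cells, and on integrin alpha 6 (a6), a laminin receptor of basal keratinocytes. The CD34-positive population was a6-high. The CD34-negative cells were split into an a6-high population, called negative a6-high here, and an a6-low population. Each of the 3 holds 2 libraries labelled KO, from mice with floxed Sirt6 alleles and a Cre recombinase under the K14 promoter, and 3 labelled WT, 15 libraries in all. The K14 promoter is active in keratinocytes, so the recombinase is not directed at the 4 lineages described here. The labels give no age, no allele for WT, no other sort marker and do not say whether replicates are different mice. The p-values therefore measure only the spread between these samples, which may be technical in part.

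Leukocytes of the skin include macrophages, which take up debris and make the complement protein C1q and the lysozyme encoded by Lyz2, and Langerhans cells, dendritic cells of the epidermis that carry langerin, encoded by Cd207. Endothelial cells line vessels and carry receptors for vascular growth factors and angiopoietins. Melanocytes sit among basal keratinocytes and hair follicle cells and make pigment with the enzymes of the tyrosinase family under the transcription factor MITF. Fibroblasts of the dermis make collagens and the small proteoglycans decorin and lumican.

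The promoters of some leukocyte and melanocyte genes are shown first. Lyz2 and Mitf, which also had entries, are not shown, and neither holds the motif marked below for its lineage. C1qb and C1qc, and likewise Tyrp1, Tyr and Dct, ranked the libraries alike, and Cd68 is shown as the leukocyte gene that did not follow them. RefSeq entries were found for 25 of the 41 genes, on build GRCm38.p6, whereas the counts were made on mm9, and the 250 bases before the transcription start were searched on both strands. In the leukocyte promoters below, capitals mark the PU-box GAGGAA, or TTCCTC on the opposite strand, a motif that the myeloid factor PU.1 can bind.

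C1qb, chr4:136886201-136886450, minus strand: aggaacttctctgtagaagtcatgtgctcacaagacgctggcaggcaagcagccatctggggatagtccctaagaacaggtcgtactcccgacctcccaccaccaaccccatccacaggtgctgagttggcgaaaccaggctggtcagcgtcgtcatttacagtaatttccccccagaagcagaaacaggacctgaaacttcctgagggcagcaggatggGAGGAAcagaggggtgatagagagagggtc
C1qc, chr4:136892915-136893164, minus strand: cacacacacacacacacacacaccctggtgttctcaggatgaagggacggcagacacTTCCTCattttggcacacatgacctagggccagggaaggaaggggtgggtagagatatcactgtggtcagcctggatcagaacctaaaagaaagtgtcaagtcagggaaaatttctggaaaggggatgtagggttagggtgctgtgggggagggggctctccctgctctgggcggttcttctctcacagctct
Cd68, chr11:69666171-69666420, minus strand: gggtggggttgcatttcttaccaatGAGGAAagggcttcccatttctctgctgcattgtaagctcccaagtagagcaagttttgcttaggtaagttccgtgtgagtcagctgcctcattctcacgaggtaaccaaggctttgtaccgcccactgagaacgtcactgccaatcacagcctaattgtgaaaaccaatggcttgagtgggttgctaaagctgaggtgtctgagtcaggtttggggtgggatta

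The PU-box was present in 8 of 10 leukocyte genes with an entry, in 4 of 8 endothelial genes and in none of the melanocyte or fibroblast genes, against 25.9% of 27025 genes. Lyz2 was one of the leukocyte genes without a match in this window. In the melanocyte promoters below, capitals mark the M-box CATGTG, or CACATG on the opposite strand, a motif that MITF can bind and that is also one form of the broader E-box CANNTG.

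Tyr, chr7:87493513-87493762, minus strand: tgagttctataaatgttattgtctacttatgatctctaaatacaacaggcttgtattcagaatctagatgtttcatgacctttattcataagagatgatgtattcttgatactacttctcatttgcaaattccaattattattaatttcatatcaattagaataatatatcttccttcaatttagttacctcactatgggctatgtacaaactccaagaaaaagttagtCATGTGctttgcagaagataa
Tyrp1, chr4:80833963-80834212, plus strand: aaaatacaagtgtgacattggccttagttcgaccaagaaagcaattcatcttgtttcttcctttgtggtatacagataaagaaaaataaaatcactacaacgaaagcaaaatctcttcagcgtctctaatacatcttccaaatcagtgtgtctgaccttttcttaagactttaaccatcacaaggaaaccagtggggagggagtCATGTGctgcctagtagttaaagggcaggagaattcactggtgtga
Dct, chr14:118052247-118052496, minus strand: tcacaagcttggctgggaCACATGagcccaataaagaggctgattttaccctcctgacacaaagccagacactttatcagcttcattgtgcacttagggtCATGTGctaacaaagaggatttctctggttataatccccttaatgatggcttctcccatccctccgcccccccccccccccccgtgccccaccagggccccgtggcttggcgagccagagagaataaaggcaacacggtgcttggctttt

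The M-box lay 16 bases before the start in Tyr and 41 bases before it in Tyrp1, and Dct held 2 matches, the nearer 145 bases before the start. It was present in 3 of 4 melanocyte genes with an entry, Mitf being the exception, in 3 of 10 leukocyte genes, in 1 of 3 fibroblast genes, in no endothelial gene and in 13.8% of all genes. The E-box was present in 4 of 4 melanocyte genes and in 69.3% of all genes, and the ETS core CCGGAA in 1 of 8 endothelial genes and in 13.6% of all genes. A match describes these letters only and shows no binding.

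The libraries held 10080902 to 28622043 counts in genes. Levels are given as CPM, the count of a gene scaled to 1e+06 counts of its library, and 1 count stood for 0.0363 to 0.111 CPM. Krt14, the keratin gene of basal keratinocytes, took 2.853% to 6.952% of the counts in each library. Sirt6 lay between 5.07 and 8.52 CPM with the KO label and between 4.45 and 10.53 CPM with the WT label, so its counts do not check the genotype. Cd34 lay at 163 to 214 CPM in the CD34-positive libraries and at 10.9 to 20.9 CPM in the negative a6-high libraries. In the a6-low libraries Cd34 was 40.2 CPM for WT replicate 1 and 27.7 CPM for KO replicate 2, above every negative a6-high library, and 4.51 to 15.5 CPM for the other 3. Among the same libraries, Itga6 was 471 CPM for WT replicate 1, 445 CPM for KO replicate 2 and 67.8 to 174 CPM for the other 3. The first 2 libraries go against the a6-low label by this gene, and calls between the a6-low cells and another population are also given without them. The 3 libraries of KO replicate 2 held 51.8 to 74.9 CPM of Y-linked Ddx3y, and no other library more than 0.222 CPM, so by this gene KO replicates 1 and 2 did not come from the same source.

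Against this keratinocyte background the 41 genes were low in every library. The 16 genes of a keratinocyte list summed to 53910 to 107100 CPM, whereas the highest sum of any of the 4 lineages was 141 CPM. Lum, which encodes lumican, had no count in any of the 15 libraries. By the mean over the 5 libraries of a population, 11 of 14 leukocyte genes, all 7 melanocyte genes and the 7 fibroblast genes with a count were highest in the a6-low cells. In contrast, 9 of 12 endothelial genes were highest in the CD34-positive cells. In bulk RNA of sorted cells, fewer cells of a type and less RNA per cell cannot be told apart.

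**Figure D1:**
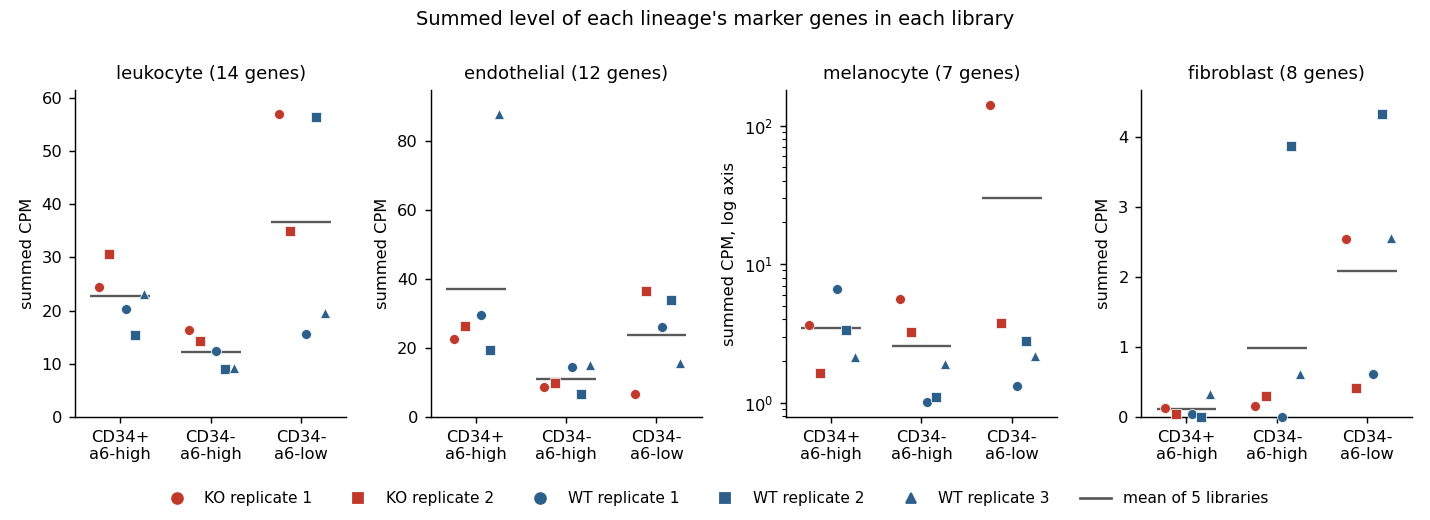
Summed CPM of the marker genes of each lineage (vertical axis, log scale for melanocytes) in the 3 populations, 1 point per library and a line at the mean of 5 libraries. The endothelial sum of WT replicate 3 in CD34-positive cells (87.7 CPM) and the melanocyte sum of KO replicate 1 in a6-low cells (141 CPM) stand far above the other 4 libraries of their population.

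The leukocyte genes summed to 12.3 ± 3.15 CPM (SD, n = 5) in negative a6-high cells, to 22.8 ± 5.58 CPM in CD34-positive cells and to 36.7 ± 19.6 CPM in a6-low cells. Cd68, a lysosomal glycoprotein gene of macrophages that other cells also express, took most of the mean sum in both a6-high populations. Without Cd68 the sum in the CD34-positive cells was 8.85 and 15.7 CPM in the KO libraries and 0.738 to 1.31 CPM in the WT libraries. In the a6-low cells it was 44.3 and 22.6 CPM in KO and 6.20, 37.3 and 3.97 CPM in WT replicates 1, 2 and 3.

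Between CD34-positive and negative a6-high cells, Cd68 was the leukocyte gene that changed. Its level in the CD34-positive cells was 15.7 and 14.9 CPM in KO replicates 1 and 2 and 19.4, 14.1 and 22.5 CPM in WT replicates 1 to 3. In the negative a6-high cells it was 7.12 and 5.95 CPM in KO and 10.0, 8.12 and 8.82 CPM in WT. Every CD34-positive library lay above every negative one. The log2 difference was 1.14 ± 0.21 (SE), with an adjusted p of 0.0254 by edgeR's quasi-likelihood test with Benjamini-Hochberg adjustment over 14652 genes. Unless another fit is named, a gene is said to pass by this fit, which used all 15 libraries and a filter on low counts. Of all genes tested, 1.17% passed in this comparison, and Cd68 was the 1 of 29 tested marker genes to do so. Of the 11 leukocyte genes tested, 6 lay above 0 and 5 below. Over all 14 genes with pooled counts the median ratio was 1.56-fold, against 0.985-fold over all genes tested. Of all genes, 0.846% passed as higher and 0.321% as lower in the CD34-positive cells. The call on Cd68 was lost when KO replicate 1 or 2 of either population was left out, or WT replicate 1 or 3 of the CD34-positive or WT replicate 2 of the negative a6-high cells (adjusted p 0.0501 to 0.117 by edgeR). It was also lost without all 3 libraries of KO replicate 2 (adjusted p 0.177 by edgeR).

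Cd68 did not follow the other leukocyte genes from library to library. Across the 15 libraries its Spearman correlation with C1qb was 0.13, whereas that of C1qc with C1qb was 0.97, those of Lyz2, C1qa and Tyrobp 0.93 and that of Fcer1g 0.91. Cd207 correlated at 0.71 and Ptprc, the pan-leukocyte phosphatase CD45, at 0.34. The 15 libraries share populations and replicate numbers, so the correlations are descriptions, with no p.

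Between CD34-positive and a6-low cells, 5 leukocyte genes passed the test and all were lower in the CD34-positive cells: Lyz2, C1qa, C1qb, C1qc and Tyrobp, an adaptor of activating receptors on myeloid cells. In this comparison 4.93% of all genes tested passed, 2.25% higher and 2.68% lower in the CD34-positive cells. The gene with the smallest p was Lyz2 (ENSMUSG00000069516). Its level in CD34-positive cells was 1.55 and 4.57 CPM in KO replicates 1 and 2 and 0 in all 3 WT libraries. In a6-low cells Lyz2 stood at 8.10 and 5.59 CPM in KO and at 2.21, 3.22 and 0.641 CPM in WT replicates 1 to 3. The populations overlapped across genotypes, but within each genotype and number the a6-low library was the higher one in 5 of 5 pairs. The adjusted p was 0.0179 by edgeR, and no fitted fold is given because the WT CD34-positive group had no count.

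The C1q genes encode the 3 chains of the first component of complement. C1qb (ENSMUSG00000036905) in CD34-positive cells lay at 1.01 and 1.83 CPM in KO and at 0 in the 3 WT libraries. In a6-low cells C1qb lay at 7.08 and 4.72 CPM in KO and at 0.423, 6.10 and 0.833 CPM in WT replicates 1 to 3. WT replicates 1 and 3 of the a6-low cells were thus below both KO libraries of the CD34-positive cells, and the populations overlapped. Its adjusted p was 0.0304 by edgeR. C1qc passed with means of 0.499 ± 0.684 CPM (SD, n = 5) and 3.48 ± 3.20 CPM and an adjusted p of 0.0392 by edgeR. C1qa fell by 4.05 ± 1.003 (SE) on the log2 scale, from a mean of 3.44 CPM in a6-low to 0.378 CPM in CD34-positive cells (adjusted p 0.0395 by edgeR). Tyrobp fell by 3.28 on the log2 scale, from 1.81 ± 1.48 CPM (SD, n = 5) in a6-low to 0.301 ± 0.353 CPM in CD34-positive cells (adjusted p 0.045 by edgeR). For each of the 5 genes the a6-low library was higher in 5 of 5 pairs.

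Other leukocyte genes had lower means in CD34-positive than in a6-low cells without passing. Fcer1g, the Fc receptor gamma chain, had an adjusted p of 0.109 by edgeR, and Csf1r, the receptor of macrophage colony-stimulating factor, 0.163. Fcgr3, an Fc receptor, had 0.289 and Cd207 0.444. Fcer1g passed with DESeq2 (adjusted p 0.0312). With no filter on low counts Fcer1g (adjusted p 0.00732) and Csf1r (0.00525) passed edgeR's test. Adgre1, Itgam and Mrc1, which encode F4/80, CD11b and the mannose receptor of macrophages, were too low to be tested here, with at most 0.545, 0.945 and 0.21 CPM in any library. Over all 14 genes the pooled counts of a6-low cells were 3.03-fold higher in the median, against 1.01-fold over all genes tested. The call on Lyz2 was lost without KO replicate 1 of the CD34-positive cells (adjusted p 0.0791 by edgeR), and those on the 3 C1q genes and Tyrobp without either KO library or WT replicate 1 or 3 of the CD34-positive cells or KO replicate 1 of the a6-low cells, with further losses for C1qa, C1qc and Tyrobp (adjusted p up to 0.175). Without the 3 libraries of KO replicate 2 none of the 5 passed (adjusted p 0.0704 to 0.189 by edgeR), whereas all 5 passed without the 2 a6-low libraries with high Itga6 (0.0166 to 0.0295), in a fit that called 6.37% of genes.

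Between negative a6-high and a6-low cells, no marker gene passed edgeR's test, which called 0.00683% of all genes. With a block for genotype and replicate number edgeR called 0.41% of genes. Among them were Lyz2 (adjusted p 0.0495), C1qa (0.0246), C1qb and C1qc (0.0404 each). The numbers paired these samples only in part, with correlations of deviations from -0.012 to 0.466. With no filter on low counts edgeR called 2.39% of genes and 13 marker genes, the leukocyte ones being Lyz2, C1qa, C1qb, C1qc, Fcer1g and Tyrobp. The leukocyte list nevertheless had 8 of its 11 tested genes at an unadjusted p under 0.05, each with the lower value in the a6-high cells, against 11.1% of all genes in either direction. No tested marker gene separated these populations without overlap, against 0.901% of all genes lower and 0.874% higher in the a6-high cells. Lyz2 had the smallest p, with 2.23 and 1.49 CPM in the KO and 0, 0.143 and 0 CPM in the WT libraries of the a6-high population, a log2 difference of -3.40 ± 0.66 (SE) and an adjusted p of 0.179 by edgeR. DESeq2 called 6 leukocyte genes, Lyz2, C1qa, C1qb, C1qc, Fcer1g and Cd68, with 1.64% of all genes called. Without the 2 a6-low libraries with high Itga6, edgeR called 2.23% of genes and, of the leukocyte genes, Cd68, C1qa, C1qb, C1qc and Fcer1g, all lower in the a6-high cells. Fcer1g then differed by -4.37 ± 0.80 on the log2 scale (SE), with an adjusted p of 0.0208 by edgeR, and Lyz2 had an adjusted p of 0.0527. Pooled counts over all 14 genes were 4.56-fold higher in a6-low cells in the median, against 1.0-fold over all genes.

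**Figure D2:**
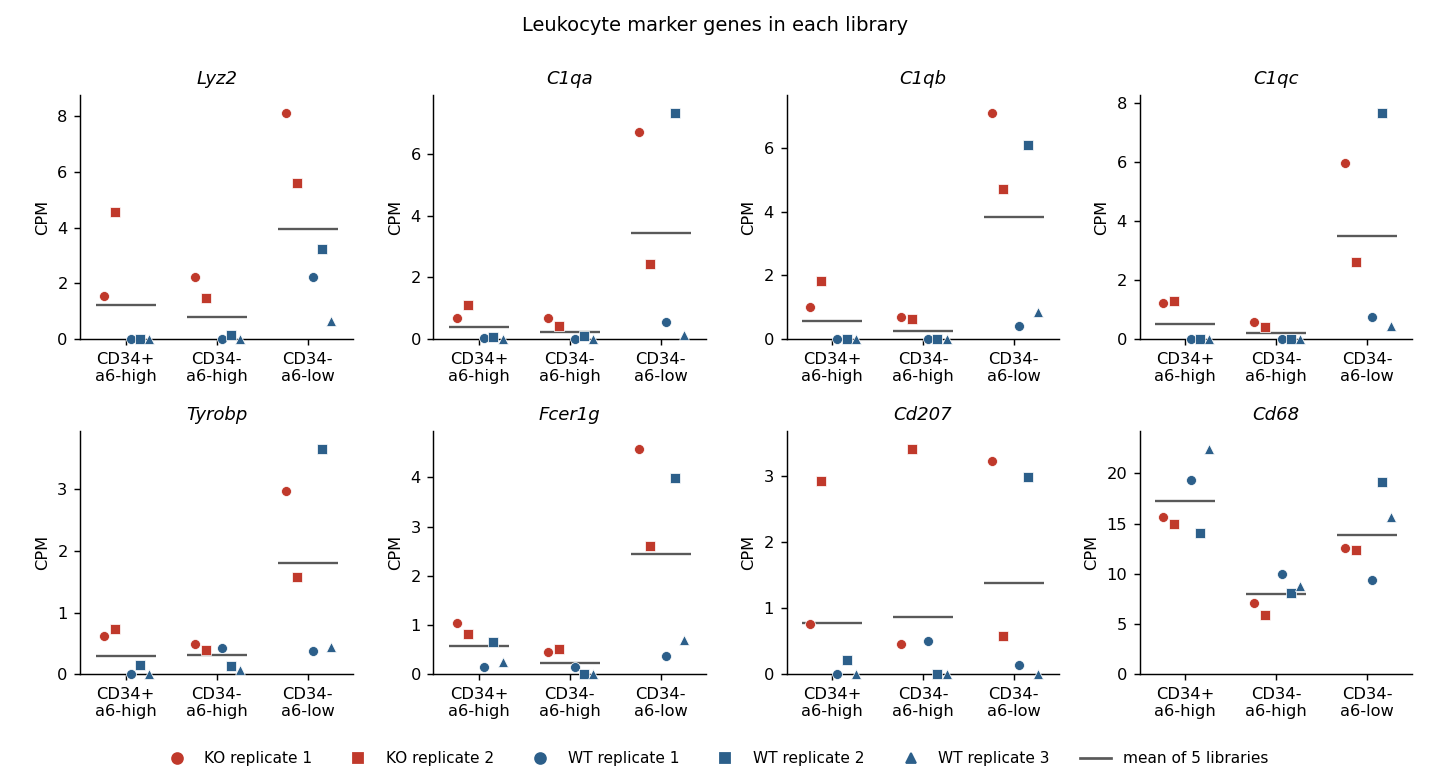
CPM (vertical axis) of 8 leukocyte genes in the 3 populations, 1 point per library, with KO in red, WT in blue and a line at the mean of 5 libraries. Lyz2, C1qb and C1qc are at 0 in the 3 WT libraries of the CD34-positive cells, while the 5 CD34-positive libraries of Cd68 (14.1 to 22.5 CPM) all lie above the negative a6-high ones (5.95 to 10.0 CPM).

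Compared by genotype, most leukocyte genes had higher counts in the libraries labelled KO, but none passed edgeR's test in any population. The summed level of the 16 keratinocyte genes also went with the label. It was 53910 and 65520 CPM in KO against 77720 to 90750 CPM in WT libraries of CD34-positive cells, 82660 and 71120 against 97950 to 107100 CPM in negative a6-high cells, and 84590 and 70270 against 88390 to 88920 CPM in a6-low cells. The KO sum was thus lower without overlap in all 3 populations. In the a6-low cells the ranges overlapped without TMM scaling (81360 and 73250 against 79070 to 93040 CPM). Krt14 alone took 28310 to 74940 CPM, and the 16 genes did not all follow their sum. In CD34-positive, negative a6-high and a6-low cells 10, 6 and 5 of them lay lower in KO and 6, 10 and 11 higher. Lower without overlap were 3, 3 and 0, against 13.2%, 13.7% and 6.39% of all genes, and higher without overlap 2, 1 and 0. The part of the keratinocyte sum in the genotype results of the 4 lineages was not tested. In CD34-positive cells 10 of the 11 tested genes were higher in both KO libraries than in all 3 WT libraries, Cd68 being the exception, against 14.9% of all genes tested. At an unadjusted p under 0.05 there were 7 leukocyte genes, 7.59% of all genes reached that level and 0.00683% passed edgeR's adjusted threshold. DESeq2 called 0.187% of genes, among them Lyz2 (adjusted p 3.89e-05), C1qb (0.00922) and C1qc (0.0245). With no filter on low counts edgeR called 0.775% of genes, among them these 3, C1qa (adjusted p 0.0147) and Cd207 (0.00889).

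Lyz2 had 137 counts in the 2 KO libraries of CD34-positive cells and none in the 3 WT libraries. Set against 3 counts over the WT group, or 0.0640 CPM, it was at least 46.8-fold higher in KO. By the same rule C1qb, with 64 counts against 0, was at least 21.9-fold higher, C1qc (57 against 0) at least 19.5-fold and Csf1r (16 against 0) at least 5.47-fold. The same 3 counts would stand for 0.0656 CPM in the KO group, so both groups were sequenced to nearly the same pooled depth. These bounds cover counting error only. Cd207 had 82 counts against 3, a ratio of 28.0 with a 95% exact interval of 9.26 to 139 from counting alone. The 82 counts were uneven, with 2.92 CPM in KO replicate 2 and 0.755 CPM in replicate 1. Ptprc had a ratio of 4.87 and Cd68 of 0.822. Over the 14 genes the median ratio was 5.16-fold, with genes at 0 put at their bound, and 13 were higher in KO, against a median of 1.0-fold and 50.5% of all genes.

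In negative a6-high cells the median KO to WT ratio of the leukocyte genes was 7.77-fold over 13 genes with more than 3 counts in either group, 11 of them higher in KO. Lyz2 stood at 2.23 and 1.49 CPM in KO, above the 0.143 CPM of the highest WT library. Its adjusted p was 0.443 by edgeR and 0.0187 by DESeq2, which called 0.18% of genes. With no filter on low counts edgeR called 1.02% of genes, among them Lyz2 (adjusted p 3.65e-05), C1qb, C1qc and Cd207. Higher without overlap were 6 of the 11 tested genes, against 16.5% of all genes, and Cd68 was lower without overlap, against 13.7%. In a6-low cells the median ratio was 2.62-fold and 13 of 14 genes were higher in KO, yet just 3 of 11 tested genes did not overlap (Lyz2, Fcgr3 and Ptprc), against 8.51% of all genes. There WT replicate 2 had 7.32 CPM of C1qa, above both KO libraries (6.72 and 2.44 CPM). In counts summed per genotype and replicate number, Lyz2 had a mean of 4.25 CPM in KO and 0.589 CPM in WT and an adjusted p of 0.461 by edgeR, which called 0.00641% of genes, while DESeq2 called it (adjusted p 0.000187) among 0.894% of genes. At an unadjusted p under 0.05 edgeR gave 6 of 11 leukocyte genes in the negative a6-high cells, against 9.59% of all genes, 1 of 11 in the a6-low cells, against 4.69%, and 6 in the sums, against 10.6%. DESeq2 called no marker gene in the a6-low cells, with 0.0239% of all genes called. No interaction of genotype with population passed for any marker gene. Lyz2, C1qb and C1qc, with Pmel, had an unadjusted p under 0.05 for genotype by a6 (adjusted p 1 by edgeR), as did 1.15% of all genes. C1qb and C1qc had no count in the WT negative a6-high libraries, so their interaction rests on an empty group. No marker gene reached that level for genotype by CD34, against 1.09% of all genes. DESeq2 called no marker gene in either, and 0.00398% of all genes for genotype by CD34.

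A wider list of 21 leukocyte genes, among them Spi1, which encodes PU.1, and Cd74, a chaperone of antigen presentation, had 16 tested genes, none of which passed in any comparison. Of these, 16 lay lower in negative a6-high than in a6-low cells, and 15 lay higher in KO in the summed counts. The wider sum was 196 ± 120 CPM in a6-low, 89.1 ± 91.3 CPM in negative a6-high and 51.7 ± 34.3 CPM in CD34-positive cells (SD, n = 5), with Cd74 and the class II genes taking most of it. Cd74 lay at 133 and 156 CPM in the KO and 90.2, 45.4 and 13.7 CPM in the WT libraries of the a6-low cells. Of 12 lymphoid genes 1 could be tested in the fit over 15 libraries, and of 11 neutrophil and mast cell genes 1. Neither passed, and the sums were 0.0721 to 1.22 CPM and 0.219 to 8.61 CPM per library.

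All 12 endothelial genes had a higher mean in the CD34-positive than in the negative a6-high cells, although none passed edgeR's test. They summed to 22.6 and 26.3 CPM in the KO and 29.5, 19.3 and 87.7 CPM in the WT libraries of the CD34-positive cells. In negative a6-high cells the sums were 8.60 and 9.85 CPM in KO and 14.6, 6.54 and 15.2 CPM in WT. The ranges did not overlap, and the pooled counts of 12 of 12 genes were higher in the CD34-positive cells, by 5.23-fold in the median against 0.985-fold over all genes tested. Of 9 tested genes, 9 lay above 0 and 6 had an unadjusted p under 0.05, against 15.1% of all genes in either direction. Cd34 itself, which endothelial cells also express, was higher in the same libraries by the sort, and its part in the result was not tested.

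Plvap encodes the protein of the diaphragms of fenestrated endothelium. In CD34-positive cells Plvap (ENSMUSG00000034845) lay at 3.57 and 3.06 CPM in KO and 3.49, 4.80 and 39.2 CPM in WT replicates 1 to 3. In negative a6-high cells it lay at 0.720 and 0.0875 CPM in KO and 0.504, 0 and 1.38 CPM in WT. WT replicate 3 was the highest library of both populations, and the populations did not overlap. The log2 difference was 3.86 ± 0.99 (SE), with an adjusted p of 0.0793 by edgeR.

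Emcn, which encodes the sialomucin endomucin, had a mean of 2.45 ± 3.04 CPM in CD34-positive and 0.124 ± 0.164 CPM in negative a6-high cells (SD, n = 5). WT replicate 3 again stood apart, at 7.87 CPM against 0.839 to 1.44 CPM in the other 4 CD34-positive libraries. Egfl7, a secreted factor of endothelial cells, was more even, at 8.77 and 8.40 CPM in the KO and 10.9, 8.07 and 14.7 CPM in the WT libraries of the CD34-positive cells. In the negative a6-high cells Egfl7 lay at 3.29 and 1.88 CPM in KO and 7.57, 3.49 and 6.21 CPM in WT. Emcn, Egfl7 and Plvap were the 3 endothelial genes without overlap, against 2.55% of all genes tested that were higher in this way. Tie1, a receptor tyrosine kinase of the angiopoietin system, averaged 5.36 ± 1.57 and 2.52 ± 1.61 CPM and overlapped, but was higher in the CD34-positive library in 5 of 5 pairs.

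With a replicate block, which compares libraries of the same genotype and number, Plvap (log2 3.68, adjusted p 0.0493) and Tie1 (log2 1.32, adjusted p 0.0484) passed edgeR's test, with Cd68 (0.018). That fit called 793 genes, or 5.41%, against 171 without the block. DESeq2 called 852 genes, or 5.54%, and among them 5 endothelial genes (Plvap, Emcn, Egfl7, Esam and Tie1). With no filter on low counts edgeR called 1242 genes, or 4.94%. Among them were the same 5 endothelial genes and Kdr (adjusted p 0.0486). Without WT replicate 3 of the CD34-positive cells the mean of the endothelial sum there fell from 37.1 to 24.4 CPM, still above each negative a6-high library.

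The receptor genes differed more from library to library. Flt1, a receptor of vascular endothelial growth factor, was highest in a6-low cells, at 1.16 and 18.7 CPM in KO and 8.51, 5.54 and 0.705 CPM in WT. The 2 highest of these, KO replicate 2 and WT replicate 1, are the a6-low libraries with high Itga6. Kdr, the main receptor of that factor, reached 1.23 CPM in WT replicate 3 of the CD34-positive cells and no more than 0.307 CPM in any negative a6-high library. Tek, the angiopoietin receptor, had no count in the 5 negative a6-high libraries. Pecam1, an adhesion molecule of endothelial cells and leukocytes, averaged 2.06 ± 0.837, 1.18 ± 0.616 and 1.26 ± 0.780 CPM (SD, n = 5) in CD34-positive, negative a6-high and a6-low cells. Eng, a co-receptor of transforming growth factor beta, averaged 0.595, 0.17 and 0.288 CPM in the same order. Cdh5 and Cldn5, junction genes of endothelium, reached at most 0.665 and 0.497 CPM and could not be tested, nor could Tek.

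**Figure D3:**
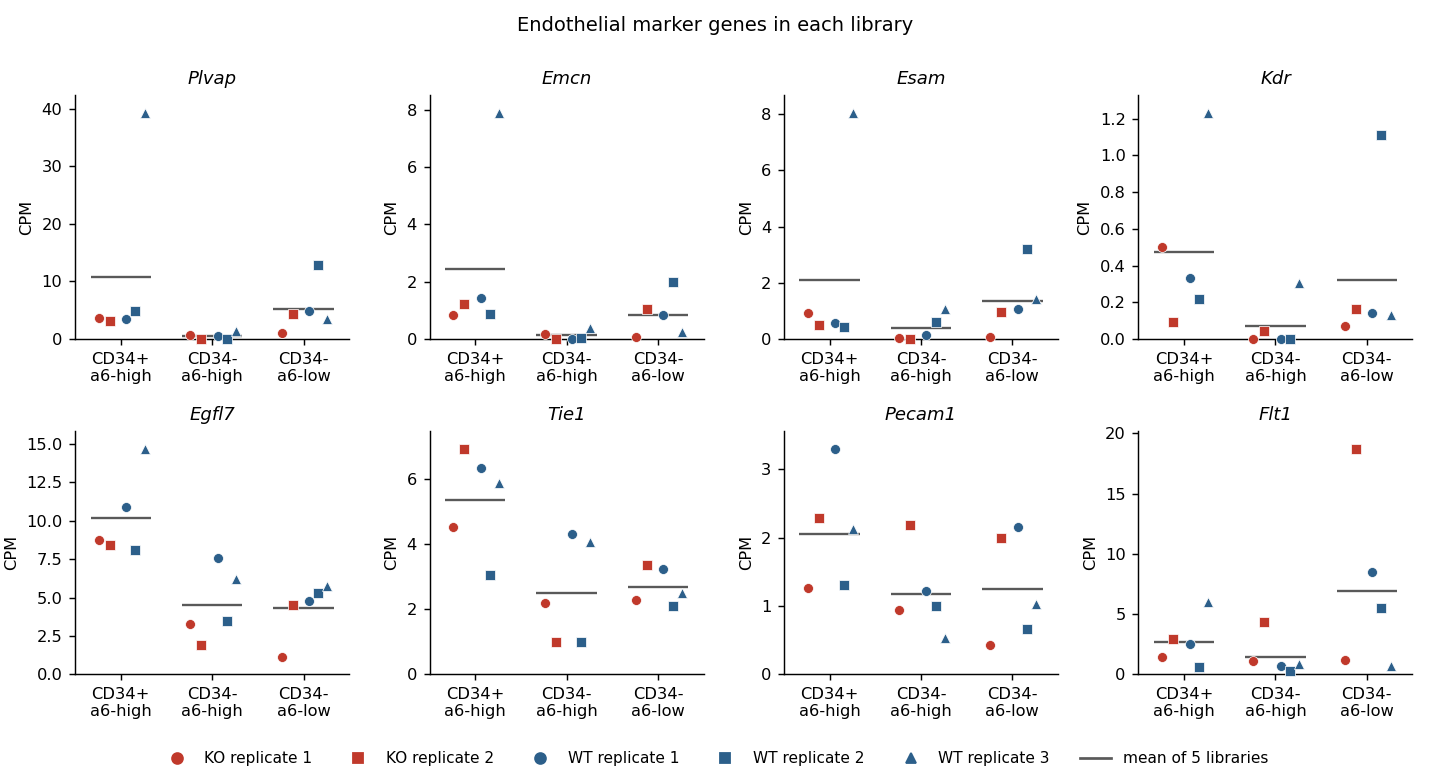
CPM (vertical axis) of 8 endothelial genes in the 3 populations, 1 point per library and a line at the mean of 5 libraries. WT replicate 3 (triangle) of the CD34-positive cells is the highest library for Plvap, Emcn, Esam, Kdr and Egfl7, whereas KO replicate 2 of the a6-low cells is the highest for Flt1.

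Between CD34-positive and a6-low cells no endothelial gene passed edgeR's test with the filter on low counts, and 8 of 9 lay above 0, Flt1 below. Egfl7 had the smallest p and no overlap between populations, against 3.25% of all genes, with a log2 difference of 1.34 ± 0.36 (SE) and an adjusted p of 0.0522 by edgeR. It passed with the replicate block (adjusted p 0.0371), in a fit that called 11.8% of genes, and with DESeq2 (adjusted p 0.00495), which called 10.6%. Without the 2 a6-low libraries with high Itga6 it also passed (log2 1.97, adjusted p 0.0115 by edgeR). The lowest a6-low library for Egfl7 was KO replicate 1, at 1.13 CPM, with the other 4 at 4.52 to 5.77 CPM. At an unadjusted p under 0.05 there were 2 of 9 endothelial genes, Egfl7 and Tie1, against 21.6% of all genes. With no filter on low counts, where 7.55% of genes were called, Egfl7 (adjusted p 0.00338) and Flt1 (log2 -1.46, adjusted p 0.0246) passed edgeR's test. Without the 2 a6-low libraries with high Itga6 the log2 difference of Flt1 was 0.44 ± 0.83 (SE).

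Between negative a6-high and a6-low cells, 9 of 9 tested endothelial genes lay below 0, 4 of them (Plvap, Flt1, Esam and Emcn) at an unadjusted p under 0.05, against 11.1% of all genes, and none passed by edgeR or by DESeq2. With no filter on low counts edgeR called these 4. Plvap had the smallest p, with a log2 difference of -3.11 ± 0.96 (SE), an adjusted p of 0.28 by edgeR and a6-low values of 1.05 and 4.31 CPM in KO and 4.79, 12.9 and 3.46 CPM in WT. Without the 2 a6-low libraries with high Itga6 the log2 difference was -2.55 for Plvap (adjusted p 0.271 by edgeR), -0.55 for Flt1 and -1.27 for Emcn, and that of Pecam1 was 0.97. Pooled counts over all 10 libraries were 3.72-fold higher in a6-low cells in the median of 12 genes. Egfl7 did not follow, with means of 4.49 and 4.30 CPM.

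By genotype no endothelial gene passed in any population with edgeR or DESeq2. With no filter on low counts edgeR called Esam, lower in KO, in the negative a6-high cells (log2 -4.51, adjusted p 0.0363). Pooled counts were higher in WT for 10 of 12 genes in CD34-positive and 8 of 12 in a6-low cells, and the median KO to WT ratios were 0.740 and 0.777. The WT CD34-positive group contains replicate 3, which alone held 478 of the 617 WT counts of Plvap there. In negative a6-high cells the ratio was 0.810 over 9 genes, with Egfl7 and Esam lower in KO without overlap, against 13.7% of all genes, and Flt1 higher. Egfl7 and Esam were also lower without overlap in the KO libraries of the a6-low cells, against 6.39% of all genes. Unadjusted p under 0.05 was reached by 0, 2 and 0 endothelial genes in CD34-positive, negative a6-high and a6-low cells, and by 2 in the sums, against 7.59%, 9.59%, 4.69% and 10.6% of all genes.

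Across the 15 libraries Plvap correlated with Emcn at a Spearman rho of 0.86, with Kdr at 0.85 and with Esam, a junction adhesion molecule, at 0.68. Egfl7 correlated with it at 0.52, Tie1 at 0.36 and Pecam1 at 0.23. Of a wider list of 18 endothelial genes, such as Vwf, Sox18 and Ramp2, 10 were tested and none passed in any comparison. All 10 lay above 0 between CD34-positive and negative a6-high cells, and 9 of 10 below 0 between negative a6-high and a6-low cells. Between CD34-positive and a6-low cells 6 lay above 0 and 4 below. The median of the wider sum was 9.86 CPM in CD34-positive and 13.8 CPM in a6-low cells. The wider sum was highest in WT replicate 3 of the CD34-positive cells, at 35.2 CPM against 4.83 to 16.6 CPM in the other 14 libraries. Of 10 pericyte and smooth muscle genes, which mark cells that ensheath vessels, 5 were tested and none passed. The defining pericyte gene Rgs5 had counts in 3 a6-low libraries alone, up to 0.512 CPM.

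The melanocyte genes were low in 14 libraries and high in 1. In KO replicate 1 of the a6-low cells they summed to 141 CPM, and in the other 14 libraries to 1.01 to 6.60 CPM. That library was the highest of all 15 for 6 of the 7 genes. Tyrp1 (ENSMUSG00000005994), a melanosomal protein related to tyrosinase, stood there at 63.1 CPM, and its a6-low values elsewhere were 0.456 CPM in KO replicate 2 and 0, 0 and 0.0641 CPM in WT replicates 1 to 3. Dct, which encodes dopachrome tautomerase, stood at 52.8 CPM in that library and at 0.663 CPM in KO replicate 2 and 0.094, 0.776 and 0.320 CPM in WT. Pmel, the gene of the fibrils on which pigment is laid down, stood at 13.4 CPM against 0.564 to 1.95 CPM in the other a6-low libraries.

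The rate-limiting enzyme of pigment synthesis, tyrosinase, is encoded by Tyr. It had 192 counts in that library, or 6.97 CPM, and none in the other 4 a6-low libraries. Mlana, a melanosomal antigen, reached 2.91 CPM there, and Sox10, a transcription factor of the melanocyte and Schwann cell lineages, 0.545 CPM. Of the libraries with the same genotype and number, the negative a6-high one summed to 5.61 CPM and the CD34-positive one to 3.61 CPM. The former held 1.25 CPM of Tyrp1, 1.40 CPM of Dct and 0.265 CPM of Tyr. WT replicate 1 of the CD34-positive cells summed to more, 6.60 CPM, with 2.44 CPM of Dct and 2.87 CPM of Pmel.

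**Figure D4:**
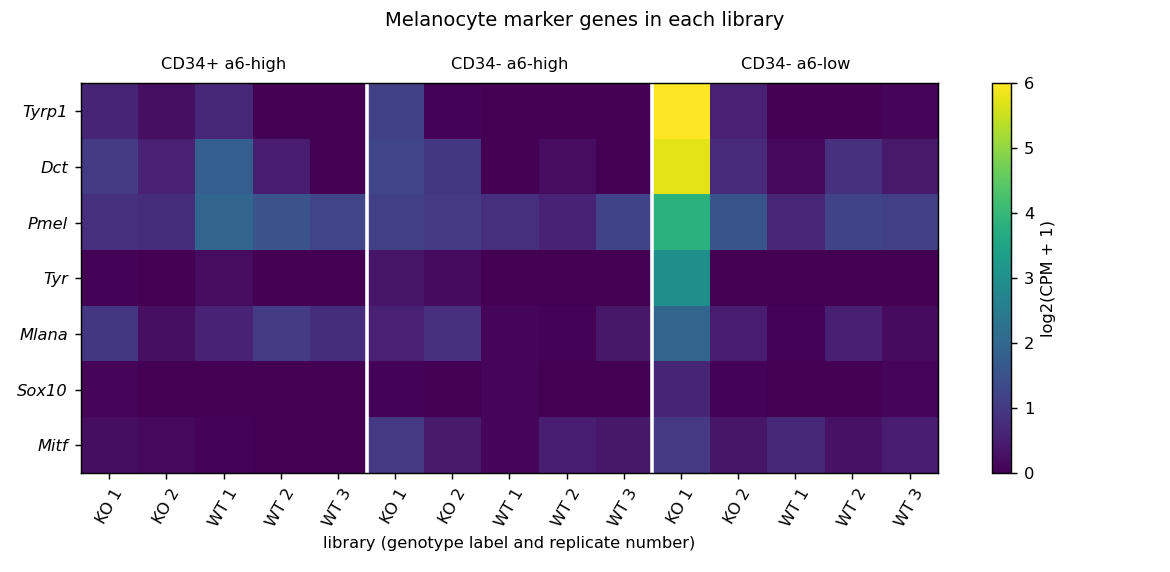
Heat map of log2(CPM + 1) (colour) of the 7 melanocyte genes (rows) in the 15 libraries (columns, by population). KO replicate 1 of the a6-low cells is the bright column, with Tyrp1 at 63.1 CPM and Dct at 52.8 CPM, and the row of Mitf does not show the same step.

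Mitf was the exception among the 7 genes, and the one to pass edgeR's test in the fit of all libraries with the filter on low counts. It lay in CD34-positive cells at 0.168 and 0.0914 CPM in KO and 0.0478, 0 and 0 CPM in WT. In a6-low cells it lay at 0.981 and 0.290 CPM in KO and 0.611, 0.222 and 0.384 CPM in WT. Every a6-low library was above every CD34-positive one, as for 3.67% of all genes tested. Mitf fell by 3.11 ± 0.75 (SE) on the log2 scale from a6-low to CD34-positive cells, with an adjusted p of 0.0369 by edgeR. The call rests on 7 counts in all CD34-positive libraries. It was lost when any of 9 of the 10 libraries was left out, KO replicate 2 of the a6-low cells being the exception (adjusted p 0.0504 to 0.127 by edgeR), and without all 3 libraries of KO replicate 2 (0.128). Mitf passed without the 2 a6-low libraries with high Itga6 (log2 -3.20, adjusted p 0.047 by edgeR).

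Against the negative a6-high cells Mitf was also lower in CD34-positive cells, in 5 of 5 pairs, with a log2 difference of -2.85 ± 0.76 (SE) that did not pass by edgeR (adjusted p 0.0869, and 0.0597 with the replicate block). It passed with DESeq2 (adjusted p 0.0499) and by edgeR with no filter on low counts (0.0296), a fit that called 4.94% of genes. The rank correlation of Mitf with Tyrp1 over the 15 libraries was 0.30, and that of Pmel was 0.32. Mlana had 0.44, Sox10 0.55, Tyr 0.79 and Dct 0.84. Many of these ranks are ties at 0. No other melanocyte gene passed in a comparison of populations by the fit of all libraries with the filter. Between CD34-positive and a6-low cells Pmel passed without the 2 a6-low libraries with high Itga6 (log2 -1.73, adjusted p 0.0239 by edgeR) and without KO replicate 2 of the a6-low cells (log2 -1.57, adjusted p 0.0495), in a fit that called 3.85% of genes. Dct passed there with no filter on low counts (log2 -1.81, adjusted p 0.0182 by edgeR). Between negative a6-high and a6-low cells all 5 tested genes lay below 0, Pmel with the smallest p (log2 -1.52 ± 0.51, SE, adjusted p 0.31 by edgeR). Pmel passed there without the 2 a6-low libraries with high Itga6 (log2 -2.08, adjusted p 0.0205 by edgeR). Without KO replicate 1 of the a6-low cells its log2 difference was -0.54 (adjusted p 0.734 by edgeR). Pooled counts of the 7 genes were 8.46-fold higher in a6-low cells in the median, and that ratio includes KO replicate 1. DESeq2 called no melanocyte gene between these populations, and edgeR with no filter on low counts called Dct (adjusted p 8e-05) and Pmel (0.0485). With the filter 2 of 5 reached an unadjusted p under 0.05 by edgeR, against 11.1% of all genes.

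By genotype no melanocyte gene passed DESeq2's test or edgeR's with the filter on low counts. With no filter edgeR called 0.62% of genes in a6-low cells, among them Tyr (adjusted p 3.02e-05), Tyrp1 (6.6e-13), Dct (5.47e-09) and Pmel (0.00313). The same fit called Tyrp1 (adjusted p 0.00289) and Dct (0.00403) in negative a6-high cells. In a6-low cells 4 of the 5 genes that passed the filter had an unadjusted p under 0.05, against 4.69% of all genes, with the smallest p in Pmel (adjusted p 0.865 by edgeR). The pooled ratio of Tyrp1, 1748 KO counts to 1 WT count, was 1550, with a 95% exact interval of 278 to 61400 from counting alone, and 1737 of the 1748 counts came from KO replicate 1. Without the 3 libraries of KO replicate 2 the adjusted p of Pmel was 0.0917 by edgeR, and without KO replicate 1 its log2 difference was 0.94 with an adjusted p of 0.623. In negative a6-high cells the 6 melanocyte genes with more than 3 counts in either group were higher in KO, by 3.9-fold in the median, and 3 of 5 tested genes did not overlap (Tyrp1, Dct and Mlana), against 16.5% of all genes. In CD34-positive cells 3 of 5 were higher in WT, and the median ratio was 0.814. There Mitf was higher and Pmel lower in both KO libraries than in every WT library, against 14.9% and 13.2% of all genes.

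A wider list of 8 melanocyte genes summed to 7.67 CPM in KO replicate 1 of the a6-low cells and to at most 2.06 CPM elsewhere, and none of the 2 genes tested passed. Among them Kit, the receptor of stem cell factor, which mast cells also carry, stood at 0.981 CPM there and at no more than 0.410 CPM in other libraries. Of 6 Schwann cell genes 2 were tested, and neither passed. That library also had the highest leukocyte sum, 56.9 CPM, was the highest for 7 of the 14 leukocyte genes, and had the lowest endothelial sum of its population, 6.58 CPM. It was the deepest library (28.62 M gene counts) and held the lowest Itga6 level of all. Whether these values share a source was not tested.

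The fibroblast genes had few counts, and no member passed in any comparison by edgeR's main fit. They summed to 0.109 ± 0.130 CPM (SD, n = 5) in CD34-positive, 0.988 ± 1.63 CPM in negative a6-high and 2.09 ± 1.61 CPM in a6-low cells. Of the 8 genes, 4 passed the filter on low counts (Col1a1, Col1a2, Col3a1 and Dcn), and Lum, Pdgfra, Pdgfrb and Fap did not. Over all libraries Fap, a serine protease of activated fibroblasts, had 2 counts, and the platelet-derived growth factor receptors Pdgfrb and Pdgfra had 9 and 25.

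Col1a1 and Col1a2 encode the chains of type I collagen. Col1a1 in a6-low cells lay at 0.436 and 0.0415 CPM in KO and 0.047, 1.66 and 0.256 CPM in WT. Col1a2 there lay at 0.763 and 0 CPM in KO and 0.047, 0.776 and 0.577 CPM in WT. KO replicate 1 and WT replicates 2 and 3, the 3 a6-low libraries with the lower Itga6 levels, were thus the higher ones for both. In negative a6-high cells WT replicate 2 held 36 counts of Col1a1 and 40 of Col1a2, or 1.72 and 1.91 CPM, and the other 4 libraries at most 0.263 CPM of either. That library had 1 count of Col3a1, the type III collagen gene, and 2 of Dcn, the decorin gene.

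Col3a1 had counts in the same 3 a6-low libraries, at 1.09 CPM in KO replicate 1 and 0.222 and 0.769 CPM in WT replicates 2 and 3, with no count in the other 2 and 1 count each in 3 a6-high libraries. It had the smallest p of the lineage between negative a6-high and a6-low cells (log2 -4.02 ± 1.43, SE, adjusted p 0.351 by edgeR). Without KO replicate 1 of the a6-low cells Col3a1 is given no fitted fold, because KO replicate 2 there had no count. It passed without the 2 a6-low libraries with high Itga6 (log2 -4.82, adjusted p 0.048 by edgeR), and the same holds against CD34-positive cells, where its adjusted p was 0.101 in the fit of all libraries and 0.0207 without those 2. At an unadjusted p under 0.05 there were 3 of 4 genes against CD34-positive cells, where 21.6% of all genes reached that level, and 1 of 4 against negative a6-high cells, where 11.1% did. DESeq2 called none, and the lineage had no call between populations in the fits of all libraries that keep the filter on low counts. With no filter edgeR called Col1a1 (adjusted p 0.0254), Col1a2 (0.00311) and Col3a1 (0.00647) between CD34-positive and a6-low cells. The same fit called Col3a1 (adjusted p 0.0422) between negative a6-high and a6-low cells. Between CD34-positive and negative a6-high cells Col1a1 had the smallest p (log2 -3.07 ± 1.60, SE, adjusted p 0.41 by edgeR), and no gene reached an unadjusted p under 0.05.

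By genotype Dcn differed in detection. It had 0 counts in the 6 KO libraries, which allows up to 0.0205 CPM over their pooled depth, and 40 counts in 6 of the 9 WT libraries. The a6-low WT libraries held 0.141, 1.66 and 0.577 CPM. Summed per genotype and replicate number, Dcn had an adjusted p of 0.461 by edgeR and of 0.0406 by DESeq2. Col1a1, Col1a2 and Col3a1 had counts in both genotypes, and in a6-low cells Col3a1 had 30 KO and 14 WT counts, a ratio of 1.90 with a 95% exact interval of 0.979 to 3.89 from counting alone. At an unadjusted p under 0.05 there was 1 fibroblast gene in the a6-low cells and 1 in the sums, Dcn in each, and none in the a6-high populations, against 4.69% and 10.6% of all genes in the first 2.

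A wider list of 17 fibroblast and mesenchymal genes summed to 83.5 to 687 CPM, far above the 8 members, and 8 of its genes were tested. Of these Postn, which encodes the matrix protein periostin, was lower in CD34-positive than in negative a6-high cells, at 3.58 against 172 CPM in the mean (log2 -5.54 ± 0.93, SE, adjusted p 0.0135 by edgeR). It was also lower than in a6-low cells, where it averaged 246 CPM (log2 -6.02 ± 0.95, SE, adjusted p 0.0101). Thy1, a surface glycoprotein of fibroblasts and T cells, was lower in CD34-positive than in negative a6-high cells, with means of 0.0632 and 1.71 CPM and an adjusted p of 0.0352 by edgeR. These were the only genes of the 9 wider lists to pass, and the other 6 tested fibroblast genes did not. None of the 16 keratinocyte genes passed in any comparison. In WT replicate 1 of the negative a6-high cells Postn stood at 239 CPM and the 8 fibroblast genes had no count.

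**Figure D5:**
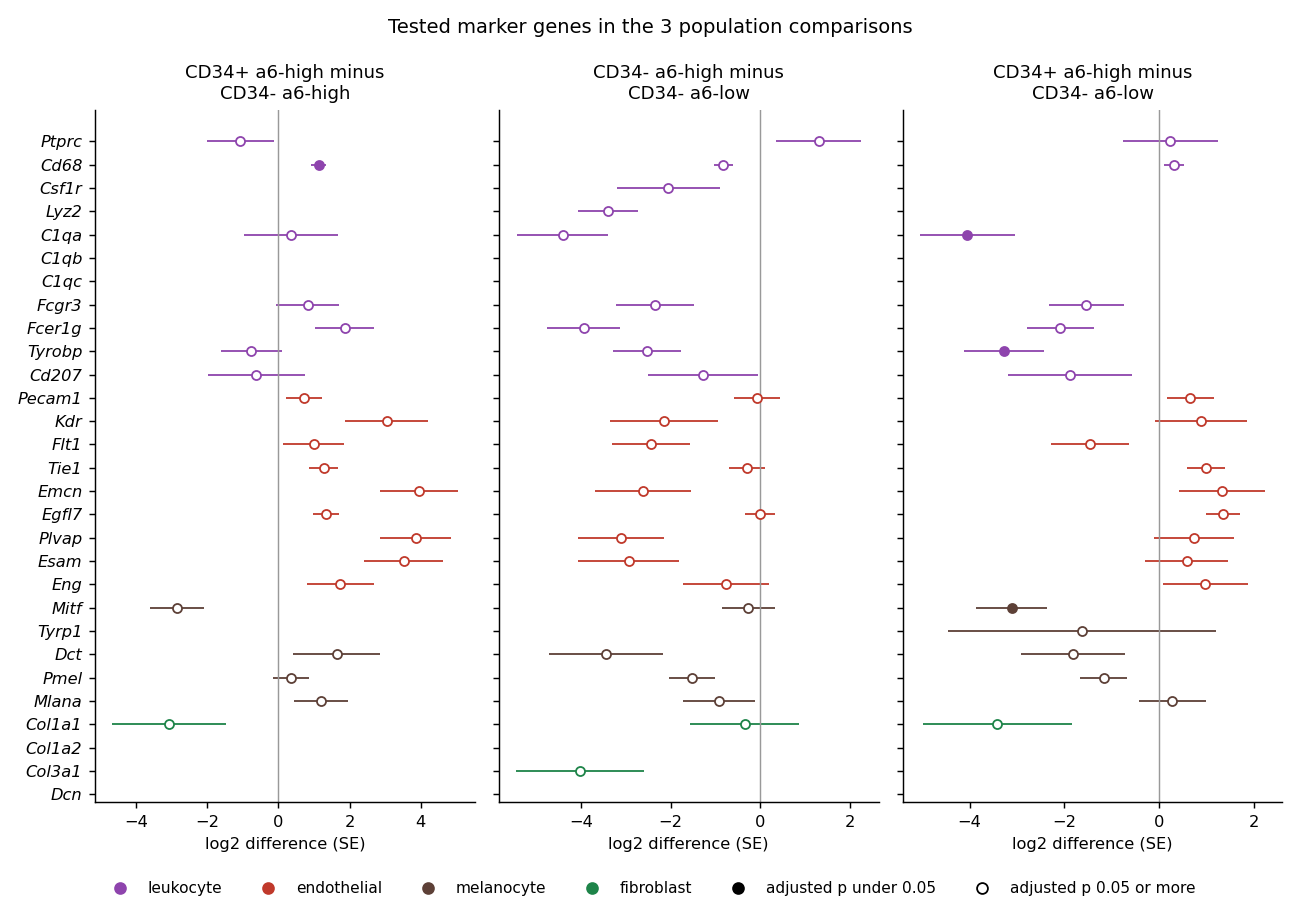
Log2 differences (horizontal axis) with standard errors of the tested marker genes in the 3 population comparisons, coloured by lineage and filled where the adjusted p was under 0.05. Genes with no count in a whole genotype group are left out, so Lyz2, C1qb and C1qc are absent from the right panel, where C1qa, Tyrobp and Mitf are filled, and Cd68 is the filled point of the left panel.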

How the data were processed

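RNA of 15 sorted samples was copied to cDNA with SMART-Seq v4, which marks neither strand nor molecule, per the labels. The deposited tables list, for each Ensembl gene, a count of reads, which the authors made with STAR 2.3.0, Picard 1.100 and HTSeq 0.6.0 on mm9, per the submitters' processing notes. In addition, 29.9% to 38% of a library's total stood in the entry for several places in the genome, which names no gene and was left out with the other 4 closing entries. Overlapping genes cannot be told apart by strand.

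Counts of 37583 genes were fitted in R 4.3.3 with edgeR 4.0.16 (TMM scaling, its default filter by group, quasi-likelihood test), with 1 coefficient per group, and 14652 genes were tested. Population contrasts average the WT and KO differences. KO was compared with WT in each population and in sums over the libraries of a genotype and number (15597 genes), and genotype by CD34 and by a6 were tested as interactions. Calls are Benjamini-Hochberg adjusted p under 0.05. CPM used the full gene totals with TMM scaling. Where a group had no count, folds were taken against 3 counts over the group. Intervals are exact at 95% and, like these floors, cover counting error only.

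Alternatives were DESeq2 1.42.0, its size factors, no filter on low counts, a replicate block, the compared groups alone and leaving out each replicate. Leaving out the 2 a6-low libraries with high Itga6, and the 3 of KO replicate 2, was chosen after seeing the data. Deviations of samples with the same genotype and number correlated at 0.104 to 0.53 between the a6-high populations. Between CD34-positive and a6-low cells they correlated at 0.273 to 0.589. All 5 pairs lay above 0.1 in each, so the data, not a label, give this pairing. The 2 KO pairs of a comparison have the same value by construction and count as 1. Between the a6-high populations WT replicates 1 and 2 lay just above 0.1, at 0.104 and 0.126. Blocked values stand beside the population results where the call changed.

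Members and lists were chosen with earlier results of these data known. Named with values are members past the threshold, the 3 highest by mean CPM in each lineage, the smallest p per lineage and population comparison, the smallest p per genotype comparison, and genes of the wider lists past the threshold. The other genes named were chosen after their values were seen. The main edgeR fit was run on simulated data for CD34-positive against negative a6-high cells alone, with the same spread for every gene. The other comparisons and the alternatives were not simulated.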

Additional observations from a re-analysis of the deposited data

Results flagged for a closer look

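Among 63 groups of 5 libraries (the marker genes named by rule and the lineage sums, both genotypes of a population together), 17 had a single library separated from the other 4 by more than 0.71 of the group's range, the 95% critical value of Dixon's test. Chance flags about 1 in 20 groups of normally distributed values from a single population. That rate need not hold here, because the groups pool both genotypes and some genes had few counts. Where a single library held all counts of a gene, it was separated by the whole range by construction, as for Col1a2 in CD34-positive cells. The flagged lineage sums also contain flagged genes, so the 17 flags are not independent and are not compared with that rate.

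Of CD34-positive cells, WT replicate 3 stood apart for the endothelial sum (87.69 CPM) and Plvap (39.17 CPM), and for the single-digit counts of Dcn (0.2459 CPM) and Col3a1 (0.08195 CPM). KO replicate 1 stood apart for Col1a2 (0.04196 CPM), which is 1 count.

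Of CD34-negative a6-high cells, WT replicate 2 stood apart for the fibroblast sum (3.868 CPM), Col1a1 (1.719 CPM) and Col1a2 (1.91 CPM), and WT replicate 3 for Dcn (0.6133 CPM). Flt1 was separate in KO replicate 2 (4.333 CPM) and Tyrp1 in KO replicate 1 (1.25 CPM).

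Of a6-low cells, KO replicate 1 stood apart for the melanocyte sum (140.6 CPM), Tyrp1 (63.1 CPM), Dct (52.75 CPM) and Pmel (13.37 CPM), all high, and for Egfl7 (1.126 CPM), which was low. WT replicate 2 stood apart for Col1a1 (1.663 CPM). No cause of these values was tested.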

How the results depend on the processing

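At 15 libraries and 10080902 to 28622043 counts, most marker genes had few counts, and the number called depended on the setting. The values below are genes called among all genes, then marker genes called, and the cause of each change was not tested. Between the a6-high populations, CD34-positive against negative, the main result of 171 genes and 1 marker became 852 and 7 with DESeq2, 1242 and 8 with no filter, 793 and 3 with the replicate block, 311 and 2 with the compared groups alone, and 32 and 0 without KO replicate 2. For a6-high against a6-low among CD34-negative cells, 1 and 0 became 228 and 6, 602 and 13, 60 and 4, 0 and 0, and 0 and 0 under the same settings in order. Without the 2 a6-low libraries with high Itga6 they became 342 and 7. Here numbers paired the samples in part. The correlation was 0.466 for both KO pairs and 0.45 for WT replicate 3, but 0.044 and -0.012 for WT replicates 1 and 2. The block called Lyz2 (adjusted p 0.0495 by edgeR), C1qa (0.0246), C1qb and C1qc (0.0404 each). For CD34-positive against a6-low cells, 722 and 6 became 1574 and 8, 1900 and 14, 1733 and 7, 422 and 1, and 116 and 1. Egfl7 was the seventh marker with the block. The block added Plvap and Tie1 in the first comparison and changed no other call in the comparisons of CD34-positive cells with another population.

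KO against WT called 1 gene and 0 markers in each population. In CD34-positive cells this became 26 and 3 with DESeq2, 195 and 5 with no filter, and 2 and 0 with the replicate block and with the compared groups alone. In CD34-negative a6-high cells it became 33 and 1, 256 and 7, 2 and 0 with the block, and 4 and 0 without KO replicate 2. In a6-low cells it became 6 and 0, 156 and 4, 2 and 0 with the block, 0 and 0 with the compared groups alone, and 6 and 0 without KO replicate 2. The numbers do not pair KO with WT (correlations -0.501 to 0.105). Summed counts gave 142 and 2 with DESeq2 and 6 and 0 with no filter. Genotype by CD34 gave 1 gene with DESeq2 and 20 with no filter, and genotype by a6 13 with no filter.

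Leaving out each replicate gave 7 to 258 genes and 0 to 1 marker, 1 to 50 genes and 0 markers, and 41 to 691 genes and 0 to 7 markers in the 3 population comparisons in the order above. It gave 1 to 2, 1 to 2, and 1 to 1 genes for KO against WT in the 3 populations and 0 to 10 in the sums, with 0 markers, and 0 for both interactions. Mean sums then ranged, in the CD34-positive, negative a6-high and a6-low populations, over 20.87 to 24.67, 11.24 to 13.06 and 31.66 to 41.99 CPM (leukocyte), 24.43 to 41.52, 9.887 to 12.05 and 20.56 to 28.04 CPM (endothelial), 2.682 to 3.921, 1.816 to 2.965 and 2.51 to 37.33 CPM (melanocyte), and 0.05485 to 0.1368, 0.2678 to 1.235 and 1.533 to 2.51 CPM (fibroblast). Leaving out each replicate changed no sign among the log2 differences of genes named by rule. Signs of other values did change without the 2 a6-low libraries with high Itga6. Between CD34-positive and a6-low cells Flt1 then lay at 0.44, against -1.46 with no filter on low counts. Between negative a6-high and a6-low cells Pecam1 (0.97) and Egfl7 (0.62) then lay above 0, whereas both lay below 0 in the main fit. Of the values for single genes, 323 kept their side of the threshold, 54 lost it and 27 gained it.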
